A study of Mus musculus with 3 samples.

Results

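Reticulocyte-like cells of low complexity were described in mouse spleen. They were cell barcodes with fewer than 300 genes, at least 500 unique molecular identifiers (UMIs, 1 per counted RNA molecule) and over 50% of their UMIs from haemoglobin genes, that is genes with symbols starting Hba- or Hbb-. Of 52492 barcodes, 1047 met this rule and are called members here. They numbered 37 of 16495 in Chow, 866 of 19219 in MASH and 144 of 16778 in MASH-Phe-free. They were compared with 674 haemoglobin-containing barcodes that held at least 300 genes and at least 10% haemoglobin, which numbered 17, 574 and 83 in the same order and are called compared cells.

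The 3 groups had 1 spleen library each. Groups could therefore be set side by side but not tested, since nothing showed how animals of a group vary. Chow was the control group, MASH stands for metabolic dysfunction-associated steatohepatitis, a fatty liver disease with inflammation, and MASH-Phe-free combined this with a treatment named for the absence of phenylalanine. The series text describes C3H mice given a high-fat and then a methionine- and choline-deficient diet, or a control diet, and implanted with HCA-1 liver tumour cells. The sample labels give neither the diet, the strain, the age, the sex, the tumours nor the number of animals of the spleens, so that text cannot be tied to them. Whole libraries held a median of 5873 to 7169 UMIs per barcode. Intervals are at 95% and cover counting error only. No doublet caller was run.

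Reticulocytes are young red blood cells that have lost their nucleus. They carry leftover messenger RNA, chiefly for globin, which they still translate while ribosomes, mitochondria and surplus proteins are removed through the ubiquitin system and autophagy. The mouse spleen clears old red cells and also makes new ones, mainly under stress, so nucleated erythroid precursors and reticulocytes can both occur there.

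Haemoglobin is built of alpha and beta chains, and the mouse reference used here has a pair of near-identical adult genes for each. Whether this reference holds for the spleens is not known, since their labels give no strain. The coding sequences are shown around their differing base because near-identical copies limit how far the globin counts can be split. In the GENCODE vM21 transcripts (GRCm38), Hba-a1 (chr11:32283511-32284465, plus strand) and Hba-a2 (chr11:32296489-32297298, plus strand) differed at 1 of 429 coding bases, C381T. Hbb-bs (chr7:103826534-103828096, minus strand) and Hbb-bt (chr7:103812524-103813996, minus strand) differed at 1 of 444, C417T. Positions count from 1 at the first base of the start codon, the first-named gene gives the first base, and the capital marks the differing base.
Hba-a1: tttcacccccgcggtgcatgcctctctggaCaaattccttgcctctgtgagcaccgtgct
Hba-a2: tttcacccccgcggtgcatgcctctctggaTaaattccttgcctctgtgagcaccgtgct
Hbb-bs: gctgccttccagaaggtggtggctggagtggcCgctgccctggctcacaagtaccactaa
Hbb-bt: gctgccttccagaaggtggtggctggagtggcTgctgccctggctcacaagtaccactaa
Of all 90-base stretches of the Hba-a1 transcript, 58.9% also occurred in Hba-a2, and of those of Hbb-bs 63.3% also occurred in Hbb-bt. The transcripts held 196 and 35 bases before the start codon in Hba-a1 and Hba-a2, and 53 and 127 in Hbb-bs and Hbb-bt. Which bases the reads covered was not examined, so the bases shown need not be those that split the counts. How the counting treated reads shared by copies is not given in the sources used here, so the split within each pair is uncertain. The sums of a pair do not rest on that split, but they too would be low if shared reads were left out.

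Beta-globin transcripts outnumbered alpha-globin transcripts in every library. Beta to alpha UMIs stood at 6.56 (6.41 to 6.71) in the members of Chow, 7.22 (7.20 to 7.25) in MASH and 8.23 (8.13 to 8.32) in MASH-Phe-free. Compared cells had higher ratios, 9.82, 8.54 and 9.06. In the median member Hbb-bs gave 72.5%, 74.5% and 73.5% of haemoglobin UMIs, Hbb-bt 11.7%, 11.8% and 13.9%, Hba-a1 13.6%, 12.6% and 11.9%, and Hba-a2 0.0683%, 0.0721% and 0.0746%. Hbb-bs was highest and Hba-a2 lowest in each library, while Hba-a1 lay above Hbb-bt in Chow and MASH and below it in MASH-Phe-free. Single members ranged widely, Hbb-bs from 34.3% to 90.8% in MASH. The embryonic genes Hba-x, Hbb-y, Hbb-bh1 and Hbb-bh2 had 0 UMIs in members of every library, which allows up to 0.000108% of haemoglobin UMIs each in MASH, 0.00105% in MASH-Phe-free and 0.00447% in Chow.

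Members were a far larger share of the MASH library than of the others. They made up 0.224% (0.158 to 0.309, Clopper-Pearson) of barcodes in Chow, 4.51% (4.22 to 4.81) in MASH and 0.858% (0.724 to 1.01) in MASH-Phe-free. The share in MASH was 20.1 times (14.5 to 27.9) that in Chow, and the share in MASH-Phe-free was 0.190 times (0.160 to 0.227) that in MASH and 3.83 times (2.67 to 5.49) that in Chow. Compared cells followed the same order, at 0.103%, 2.99% and 0.495% of barcodes. Of barcodes under 300 genes, members were 15.4%, 70.1% and 23.9%. Members held 48.8%, 49.8% and 39.7% of all haemoglobin UMIs of their library. Haemoglobin UMIs were also found in other cells, in the same order of libraries. Among barcodes with at least 2 T cell marker genes, 6.80% in Chow, 65.6% in MASH and 22.7% in MASH-Phe-free held a haemoglobin UMI, at 0.0251%, 0.336% and 0.130% of their UMIs. With 1 library per group, the group cannot be told apart from the library or the animal.

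**Figure D1:**
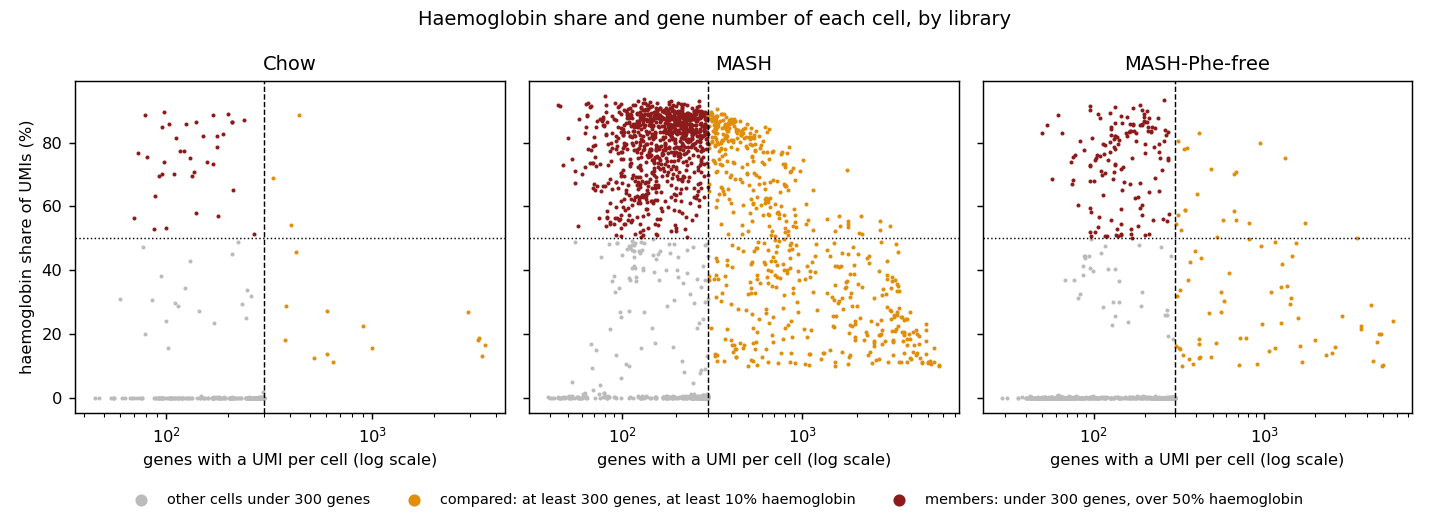
Each point is 1 barcode, with its genes on a log axis and its haemoglobin share of UMIs in percent, for members (dark red), compared cells (orange) and other barcodes under 300 genes (grey). The dashed line marks 300 genes and the dotted line 50% haemoglobin; 866 members lie in MASH, against 37 in Chow and 144 in MASH-Phe-free.

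The members were small libraries. Their median UMIs were 1726 in Chow, 3265 in MASH and 2096 in MASH-Phe-free, with 131, 168 and 145 genes, of which haemoglobin took 76.8%, 82.3% and 77.0% of the UMIs. That left a median of 399, 620.5 and 475 other UMIs per member, and 16254, 570471 and 74384 over all members of a library. Values for Chow are therefore the least precise. Members were chosen by gene number, UMIs and haemoglobin share, so these values are a description. Of the members' barcode sequences, 0 of 37, 10 of 866 and 4 of 144 occurred in another library, at most 2.78%, and none of these was a member there. In all libraries together the same held for 0.903% to 1.07% of barcodes.

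The 12 reticulocyte markers that the rule did not use were present in nearly every member. Among them were Alas2, Slc25a37, Fech, Bpgm, Slc4a1, Epb42, Mkrn1, Bnip3l, Ube2l6 and Tent5c. The median member held UMIs of 9 of them in Chow, 10 in MASH and 9 in MASH-Phe-free, and at least 3 were seen in 37 of 37, 859 of 866 and 143 of 144 members. Compared cells held a median of 8, 11 and 10, with at least 3 in 94.1%, 98.4% and 91.6%, so these markers do not set members apart from them. Other barcodes under 300 genes held a median of 0, 1 and 0, and T-marked cells (at least 2 T cell marker genes) a median of 2 in each library, with at least 3 in 34.8%, 34.1% and 30.1%. Alas2, which makes the first enzyme of haem synthesis in erythroid cells, was detected in 94.6%, 99.3% and 95.8% of members. After every cell was thinned to 500 UMIs the shares were 86.5%, 86.6% and 81.9%. T-marked cells, which should lack Alas2 and had median depths of 9172.5, 9204 and 8470 UMIs, showed it in 0.257%, 1.61% and 0.752% before thinning.

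Once haemoglobin was set aside, the 3 highest genes were Cmss1, Camk1d and Gphn, which are not known as erythroid genes. Cmss1 encodes a homologue of a yeast protein of the small ribosomal subunit, Camk1d encodes a calcium/calmodulin-dependent kinase and Gphn the synaptic scaffold gephyrin. Levels are given per 10000 non-haemoglobin UMIs, not scaled by gene length. Cmss1 stood at 3207 in Chow, 2874 in MASH and 3231 in MASH-Phe-free, with 100% of members positive in each. Its presence was general, since 100% of compared cells and 100%, 100% and 99.9% of T-marked cells held it. Thinned to 500 UMIs, 98.7%, 98.6% and 97.9% of T-marked cells still did. Camk1d stood at 567, 550 and 397, and Gphn at 364, 510 and 313. Together with the predicted gene Gm19951 (190, 162, 145), Lars2 (162, 136, 134), which encodes the mitochondrial leucyl-tRNA synthetase, and Cdk8 (32.0, 27.6, 29.7), they formed 6 leading genes that summed to 4521, 4261 and 4250. This group was put together after its values were seen.

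The 6 leading genes took a similar part of the RNA in the 3 libraries and were far lower in compared cells. Compared cells held 324, 489 and 469, so members were 14.0-fold (13.3 to 14.6) higher in Chow, 8.71-fold (8.65 to 8.77) in MASH and 9.07-fold (8.90 to 9.24) in MASH-Phe-free. Against only those compared cells with at least 50% haemoglobin, which number 3, 272 and 21, the folds were 2.999, 3.30 and 2.62. With every cell weighted equally they were 5.42, 4.04 and 3.68. The signal was not limited to members, since other barcodes under 300 genes held 1516, 3314 and 947. Across members the level of the 6 genes and that of the erythroid genes ran in opposite directions, with Spearman coefficients of -0.52 over 37 members, -0.85 over 866 and -0.77 over 144. These share a denominator and are a description. What gave rise to the 6 signals was not tested.

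Genes of red cell function followed. In haem synthesis and iron supply, Alas2 stood at 234 in Chow, 244 in MASH and 212 in MASH-Phe-free. Slc25a37, the mitochondrial iron importer mitoferrin 1, stood at 61.5, 58.7 and 65.5. Slc25a39, a mitochondrial carrier, stood at 47.4, 46.6 and 47.3, and Fech, which inserts iron into haem, at 44.3, 42.6 and 41.1. These 4 genes lay close together in the 3 libraries. The list of 19 genes summed to 469, 485 and 460, and 12, 18 and 18 of them had a UMI.

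Among red cell enzymes and antioxidants, Gpx1, the peroxide-removing glutathione peroxidase, was the highest at 220, 327 and 268. Bpgm, which makes the 2,3-bisphosphoglycerate that lowers the oxygen affinity of haemoglobin, stood at 79.4, 69.1 and 61.4. Prdx2, a peroxiredoxin abundant in red cells, stood at 23.4, 30.5 and 29.8. Car2, a carbonic anhydrase, stood at 10.46, 26.4 and 28.5, and in Chow 1 member gave 52.9% of its UMIs. Ucp2, a mitochondrial carrier outside the lists, stood at 108, 141 and 133.

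Genes of the clearance machinery were about as high as those of haem synthesis. Ube2l6, a ubiquitin- and ISG15-conjugating enzyme, stood at 124, 129 and 103. Mkrn1, a ubiquitin ligase, stood at 97.8, 122 and 107, Ubb, a polyubiquitin gene, at 72.0, 85.6 and 70.04, and Bnip3l, the autophagy receptor that clears reticulocyte mitochondria, at 68.3, 70.1 and 63.3. The 17 genes summed to 474, 534 and 457.

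Late erythroid regulators and membrane genes completed the picture. Tent5c, a poly(A) polymerase, stood at 102, 95.1 and 86.7, Bcl2l1, a survival gene of late erythroblasts, at 13.5, 15.3 and 14.4, and Pabpc1, the poly(A)-binding protein outside the lists, at 107, 149 and 149. Epb41, protein 4.1 of the membrane skeleton, stood at 72.0, 93.1 and 78.0. Slc4a1, the band 3 anion exchanger, stood at 22.8, 40.8 and 43.4, and Epb42, protein 4.2, at 1.23, 3.51 and 3.23. Of the erythroid genes given here, Epb42 and Car2 were the ones in which Chow lay more than 2-fold below MASH. Epb42 was found in only 2 of 37 members of Chow, so its difference rests on very few UMIs.

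Against compared cells, members held more erythroid RNA among their other transcripts, but not against compared cells as rich in haemoglobin. The 5 erythroid lists (haem, membrane, enzymes, clearance and late regulators) summed to 1624, 1916 and 1700 in members and to 320, 1039 and 676 in compared cells, a ratio of 5.08 (4.80 to 5.37) in Chow, 1.84 (1.83 to 1.86) in MASH and 2.52 (2.46 to 2.57) in MASH-Phe-free. Against the compared cells with at least 50% haemoglobin the ratios were 0.677, 0.888 and 0.956. Of compared cells, 13 of 17, 188 of 574 and 50 of 83 held UMIs of at least 3 B cell, T cell, neutrophil or macrophage marker genes, against 3 of 37, 35 of 866 and 24 of 144 members. Without those mixed compared cells the ratios were 0.717, 1.34 and 1.60, the first over 4 cells. Alas2 was higher in members under both settings, 11.47-, 4.91- and 7.37-fold against all compared cells and 1.26-, 1.52- and 1.64-fold against those with at least 50% haemoglobin. Gpx1 went from 4.26-, 2.07- and 2.81-fold to 0.385-, 0.816- and 0.861-fold.

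Gene by gene, few transcripts were higher in members. Of genes with at least 20 UMIs in both sets together, 92 of 507 in Chow (18.1%), 139 of 8727 in MASH (1.59%) and 142 of 3742 in MASH-Phe-free (3.79%) were at least 2-fold higher, and 55.4%, 85.6% and 66.7% at least 2-fold lower. The median log2 ratio was -1.15, -2.32 and -1.52. The rule limits the gene number of members, so nothing is read from this balance. With the 6 leading genes out of the total, the median moved to -0.47, -1.61 and -0.97 and Chow had 120 genes higher and 177 lower. Of the 5 erythroid lists, 27 of 33, 19 of 83 and 21 of 80 genes so measured were at least 2-fold higher and 2, 46 and 29 at least 2-fold lower, with list medians of 2.37, -1.16 and -0.59. In MASH and MASH-Phe-free, more genes of the lists were thus lower than higher, although the lists' summed level was higher in members. Of 491 genes measured in the 3 libraries, 62 were 2-fold higher in every one, 237 lower in every one, and 4 opposite in some pair.

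**Figure D2:**
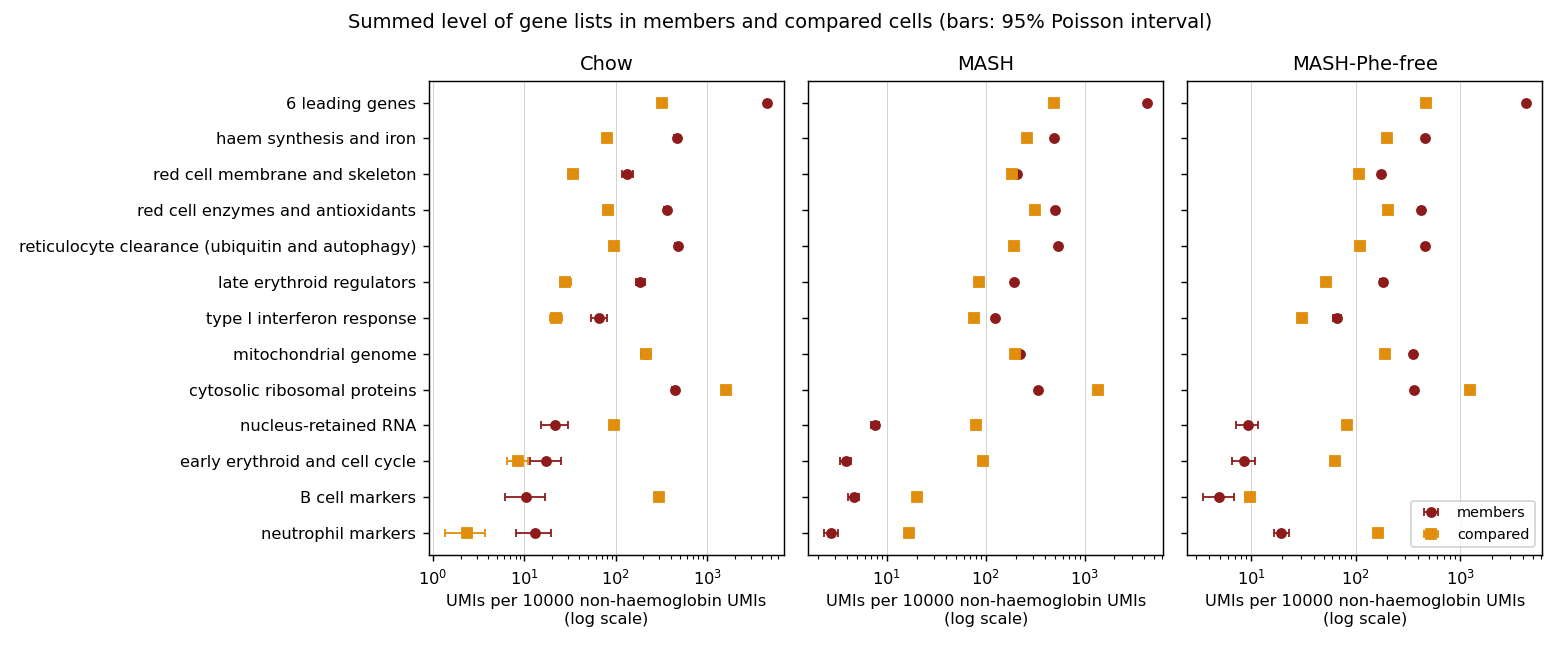
Summed UMIs of each gene list per 10000 non-haemoglobin UMIs, on a log axis, in members (dark red circles) and compared cells (orange squares) of each library, with 95% Poisson intervals. The 6 leading genes and the erythroid lists lie to the right in members, and ribosomal proteins and nucleus-retained RNA to the left.

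Transcripts retained in the nucleus and those for ribosomal proteins stood lower in members than in compared cells, and were low in other barcodes under 300 genes as well. Malat1, a long non-coding RNA that stays in the nucleus, stood at 21.5, 7.41 and 9.14 in members and at 92.7, 77.7 and 81.2 in compared cells, ratios of 0.232, 0.0954 and 0.113. Against the 3 compared Chow cells with at least 50% haemoglobin, which held 5.47, the Chow ratio was 3.94. A Malat1 UMI was found in 54.1%, 33.9% and 27.1% of members and, thinned to 500 UMIs, in 18.9%, 9.70% and 16.7%, against 91.6%, 91.8% and 91.4% of T-marked cells thinned alike. The 500 UMIs included haemoglobin, which took 80.5%, 82.9% and 79.3% of members' UMIs. In T-marked cells it took 0.0251%, 0.336% and 0.130%. Thinned members thus kept far fewer non-haemoglobin UMIs, and these shares are not at equal non-haemoglobin depth. Neat1, another nuclear RNA, was found in 0 of 37, 5 of 866 and 0 of 144 members, where a count of 0 allows up to 3 UMIs or 1.85 and 0.403 per 10000. The 89 genes for cytosolic ribosomal proteins summed to 439, 338 and 365 against 1614, 1363 and 1257, ratios of 0.272, 0.248 and 0.291. Of those measured, 74 of 79, 81 of 85 and 79 of 82 were at least 2-fold lower, against 55.4%, 85.6% and 66.7% of all measured genes. Their median log2 ratio was -2.001, -2.21 and -1.90, against -1.15, -2.32 and -1.52 for all measured genes, so in MASH the list lay close to the other genes. Against compared cells with at least 50% haemoglobin the ratios were 0.399, 0.516 and 0.519. Other barcodes under 300 genes held 449, 334 and 212 of the ribosomal protein genes. Their 5 nucleus-retained RNAs summed to 8.91, 8.90 and 8.97, against 21.5, 7.61 and 9.28 in members. Low levels of both were thus not particular to members. Rplp0 and Rplp1, acidic stalk proteins of the ribosome, stood at 18.5, 14.8 and 14.0 and at 15.4, 10.4 and 11.2 in members.

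Genes of dividing precursors were lower in members than in compared cells in MASH and MASH-Phe-free and not in Chow. The list of 16 genes summed to 17.2, 3.84 and 8.60 in members and 8.48, 94.8 and 63.5 in compared cells. Other barcodes under 300 genes held 2.24, 5.97 and 4.57, so low levels of the list were not particular to members. In Chow, 1 member gave 81.8% of the UMIs of Mki67, the proliferation marker, 84.6% of those of Diaph3 and 75.0% of those of Hmgb2. With every cell weighted equally the Chow ratio of the list was 0.640. In MASH, Mki67 stood at 1.42 in members against 24.5, Dek, a chromatin protein, at 0.316 against 15.8, the histone gene H2ac8 at 0.245 against 15.3 and Tmem14c, needed for haem precursor import, at 0.316 against 9.28. In MASH-Phe-free these 4 genes stood at 2.15 against 13.6, 0.807 against 11.7, 0.403 against 5.47 and 0.538 against 9.19. Of measured genes of the list, 0 of 2 were at least 2-fold higher and 1 lower in Chow, and 0 higher and 13 lower of 13 in both other libraries, where 85.6% of all measured genes in MASH and 66.7% in MASH-Phe-free were lower. The median log2 ratio of the list was -5.27 in MASH and -2.63 in MASH-Phe-free, against -2.32 and -1.52 for all measured genes. Of the progenitor markers, Gata2 had 0 UMIs in the members of every library and Kit in those of Chow and MASH. Compared cells also had 0 UMIs of both genes in Chow and of Gata2 in MASH-Phe-free. Myb, another gene of the list, had 0 UMIs in members of Chow but not in those of MASH and MASH-Phe-free. These zeros do not set members apart in Chow, nor for Gata2 in MASH-Phe-free.

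Mitochondrial transcripts remained. The 13 genes summed to 211, 224 and 351 in members and 214, 198 and 192 in compared cells. The MASH-Phe-free value rested partly on 1 member, which gave 37.9% of the UMIs of mt-Cytb (30.1, against 13.5 in Chow and 16.8 in MASH). The median member had 1.83%, 1.34% and 1.71% mitochondrial UMIs among its non-haemoglobin UMIs, with a maximum of 52.3% in MASH.

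RNA of most other spleen cell types was low in members. The 10 lists of other cell types took 0.523%, 0.236% and 0.479% of members' non-haemoglobin UMIs, against 5.55%, 1.16% and 3.52% in compared cells and 5.96%, 3.92% and 7.43% over all barcodes. B cell markers stood at 0.132, 0.0651 and 0.0800 of the all-barcode level, T cell markers at 0.0561, 0.0519 and 0.0564 and neutrophil markers at 0.0473, 0.0327 and 0.0434. These fractions differed between cell types within a library. In MASH-Phe-free, neutrophil markers were lower in members than in all compared cells (19.5 against 164 per 10000) and higher than in those with at least 50% haemoglobin, with a log2 ratio of 2.25. S100a9, a neutrophil gene, stood at 3.69, 1.28 and 8.20 and was present in 13.5%, 7.74% and 35.4% of members. Platelet markers went the other way in MASH-Phe-free, at 4.76 times (2.53 to 8.15) the all-barcode level and 4.52 times (1.957 to 10.4) that of compared cells, over 13 UMIs. They had 0 UMIs in members of Chow and 12 in MASH, where the ratio to all barcodes was 0.677 (0.350 to 1.18). Dendritic cell, natural killer cell and stromal markers had 0 UMIs in Chow, which allows up to 1.41, 0.211 and 1.37 times the all-barcode level. For platelet markers in Chow the limit was 7.32 times. Of these 0 counts, only that of natural killer cell markers thus shows a level below that of all barcodes. The part of other cells' RNA in the results was not tested.

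Within each library the remaining RNA changed with the haemoglobin share, a quantity the rule used. In MASH, the 177 members with over 50 to 70% haemoglobin, the 364 with over 70 to 85% and the 325 above 85% held 1094, 1788 and 2554 UMIs of the 5 erythroid lists per 10000 and 6081, 4416 and 3005 of the 6 leading genes. Alas2 went from 126 through 209 to 355 and Gpx1 from 190 through 321 to 414. Slc4a1 did not follow, at 37.9, 46.4 and 35.5. The bands of MASH-Phe-free held 1018, 1830 and 2650 of the erythroid lists and those of Chow 874, 1559 and 2319, over as few as 10 members. The 3 bands of MASH had median non-haemoglobin depths of 598, 666 and 583 UMIs.

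**Figure D3:**
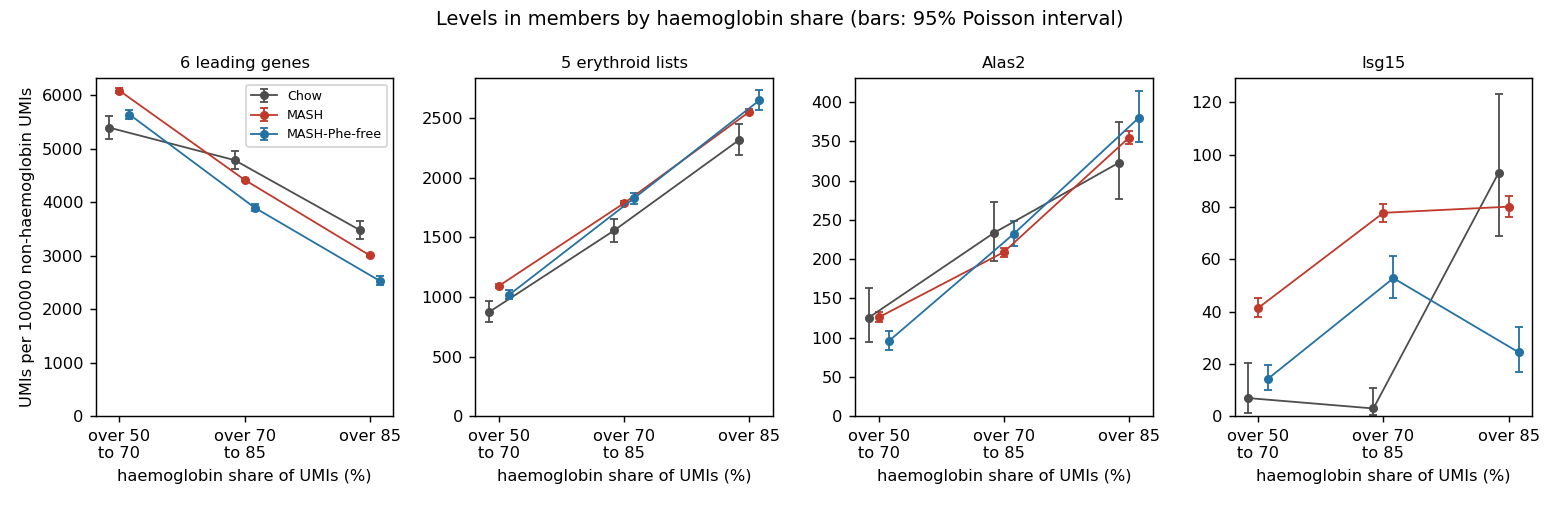
UMIs per 10000 non-haemoglobin UMIs of the 6 leading genes, the 5 erythroid lists, Alas2 and Isg15 in members, by band of haemoglobin share and library, with 95% Poisson intervals. The erythroid lists and Alas2 go up and the 6 leading genes down from band to band in each library, while Isg15 has no common course.

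Members were poor in different genes even at equal depth, in part by the rule. Thinned to 500 UMIs, the median member showed 58, 47 and 53 genes and the median compared cell 268, 189.5 and 258. Thinned to 100 non-haemoglobin UMIs, members showed 48 genes in each library against 86, 82 and 85. With the 6 leading genes also removed, members showed 72, 68 and 69 against 90, 86 and 90, leaving out 2, 42 and 7 members that were too shallow.

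The transcripts of members were alike across libraries. Over 155 genes the Spearman coefficient between members was 0.881 for MASH and Chow, 0.957 for MASH-Phe-free and MASH and 0.897 for MASH-Phe-free and Chow. This is across genes, which are not independent, and is a description. Between members and compared cells of a library it was 0.213, 0.635 and 0.531 over 151, 1715 and 468 genes. These gene sets differ from the 155 genes, so these coefficients cannot be set against those between libraries. The ratio of erythroid sums was 1.18 (1.14 to 1.23) for MASH over Chow and 0.887 (0.871 to 0.904) for MASH-Phe-free over MASH.

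Between libraries, 77 of 757 genes (10.2%) were at least 2-fold higher in members of MASH than of Chow and 148 (19.6%) at least 2-fold lower. From MASH to MASH-Phe-free, 121 of 1096 (11%) were higher and 118 (10.8%) lower, and from Chow to MASH-Phe-free 42 of 312 (13.5%) were higher and 15 (4.81%) lower. Of the erythroid lists, 8 of 54 measured genes were higher and 3 lower in MASH than in Chow, 3 and 1 of 63 in MASH-Phe-free against MASH, and 5 and 1 of 39 in MASH-Phe-free against Chow. Among those farthest above Chow in MASH were Azin1, Zfand6, Eif1 and Apol11b. Eif1, a translation initiation factor, stood at 9.84, 38.8 and 18.7, 3.95-fold (2.42 to 6.92) higher in MASH than in Chow. Azin1, an activator of polyamine synthesis, and Zfand6 had 1 and 2 UMIs in Chow.

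Interferon-response transcripts were highest in MASH, in members as in compared cells and over all barcodes. The list of 16 genes stood at 65.8 (interval 54.0 to 79.5) in Chow, 124 in MASH and 66.9 in MASH-Phe-free. That put MASH at 1.89 times Chow (1.56 to 2.31) and MASH-Phe-free at 0.538 times MASH (0.490 to 0.589). Isg15, a ubiquitin-like protein attached to targets after interferon, was the largest contributor at 33.2, 71.1 and 33.7. A single member gave 77.8% of its UMIs in Chow and 22.7% in MASH-Phe-free. Without the highest member of each library Isg15 stood at 7.80, 69.9 and 26.4 and the list at 29.2, 123 and 58.6, which put MASH at 4.20 times Chow and MASH-Phe-free at 0.476 times MASH. Isg15 was found in 18.9%, 63.5% and 34.7% of members and, thinned to 500 UMIs, in 8.11% (1.70 to 21.9), 30.9% (27.9 to 34.1) and 18.8% (12.7 to 26.1) of members. T-marked cells showed it in 19.7%, 31.6% and 26.2% unthinned and in 2.02%, 3.83% and 3.54% thinned alike. As for Malat1, thinned members kept fewer non-haemoglobin UMIs than thinned T-marked cells. Isg20, an RNA exonuclease, stood at 22.8, 39.6 and 27.3, and Irf7, a transcription factor of the interferon response, at 3.08, 5.26 and 0.941, where 1 member gave 80% of the 5 UMIs of Chow. Apol11b, an apolipoprotein L gene outside the list, stood at 11.1, 41.7 and 17.5, 3.77-fold (2.38 to 6.37) higher in MASH than in Chow and 0.419-fold (0.348 to 0.500) in MASH-Phe-free against MASH.

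The list did not move as one. Of its genes with a measured direction, 1 of 6 was 2-fold higher and 0 lower in MASH than in Chow, and 0 of 10 were higher and 4 lower in MASH-Phe-free than in MASH. Of all measured genes, 10.2% were higher and 19.6% lower in the first comparison, and 11% higher and 10.8% lower in the second. Rsad2, the antiviral enzyme viperin, which is not in the list, stood at 153, 157 and 153, and Ube2l6 at 124, 129 and 103. Compared cells of MASH with at least 50% haemoglobin held more interferon-list RNA than members, 211 against 124, while all compared cells of MASH held 77.0. All compared cells of Chow and MASH-Phe-free held 22.3 and 30.9. All barcodes held 16.7 in Chow, 30.1 in MASH and 23.3 in MASH-Phe-free. By rising haemoglobin share, the 3 bands of MASH members held 60.6, 126 and 160.

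**Figure D4:**
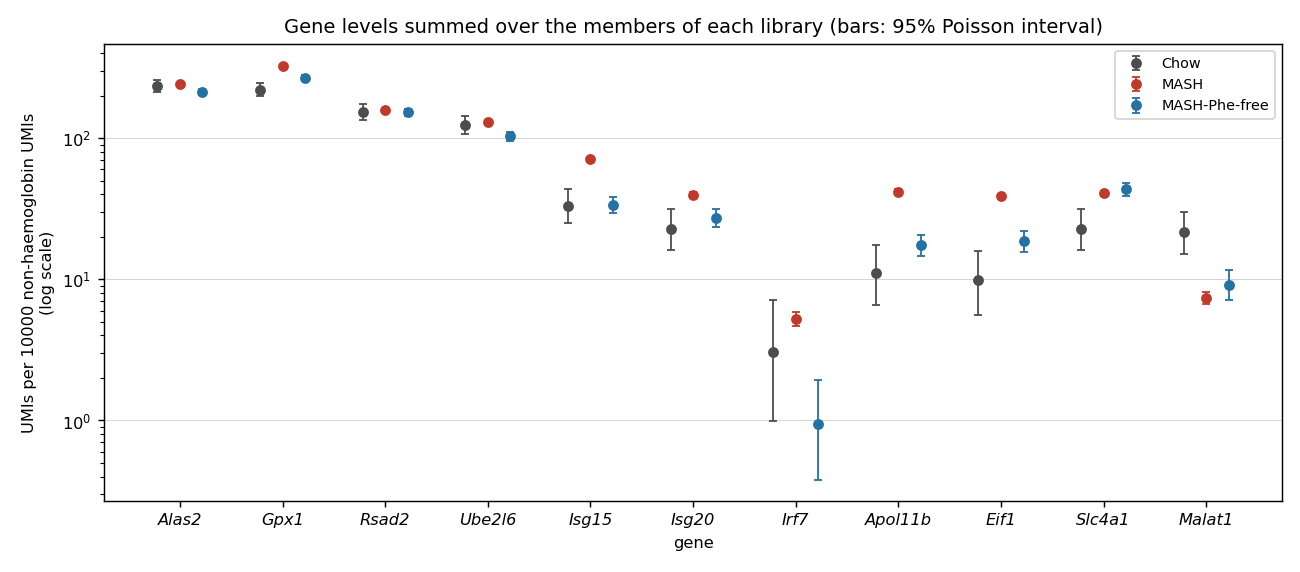
UMIs of 11 genes per 10000 non-haemoglobin UMIs, on a log axis, summed over the members of Chow (grey), MASH (red) and MASH-Phe-free (blue), with 95% Poisson intervals that cover counting error only. Rsad2 is level in the 3 libraries, while Isg15, Apol11b and Eif1 are highest in MASH.

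The promoters of these genes were searched for the interferon-response letters GAAANNGAAA on both strands of the 250 bases before the start, in the RefSeq promoter table (GRCm38.p6), where 978 of 32851 promoters (2.98%) hold a match. Isg15 held 3 matches, which overlap each other, Rsad2 1 and Apol11b 1. Ube2l6, Isg20 and Irf7 held none, and neither did Alas2, Gpx1 and Mkrn1. The lines that follow show 1 match of each in capitals, in the strand of the gene, where the Rsad2 and Apol11b matches read on the opposite strand, because the 3 genes share these letters and differ in how they varied between libraries.
Isg15: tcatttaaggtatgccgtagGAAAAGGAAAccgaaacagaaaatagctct
Rsad2: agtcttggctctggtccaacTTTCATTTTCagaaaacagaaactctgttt
Apol11b: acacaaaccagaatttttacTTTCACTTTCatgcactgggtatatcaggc
They lie at chr4:156200867-156200916, chr12:26456543-26456592 and chr15:77643307-77643356, all on the minus strand. A match is a description of letters, and binding was not measured.

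Cells of MASH next to the limits were close to the members beside them in Alas2 and less so in ribosomal protein genes. In MASH, the 40 members with at least 280 genes held 277 UMIs of Alas2 and 387 of ribosomal protein genes per 10000, and the 18 cells with 300 to under 320 genes and over 50% haemoglobin held 278 and 476. The 27 members with 50 to 55% haemoglobin held 99.6 of Alas2, and the 27 cells under 300 genes with 45 to 50% held 88.4. Their ribosomal protein genes stood at 190 and 242. In Chow these bands held 3 members and 3 cells, with 400 and 617 of ribosomal protein genes and 78.4 and 90.4 of Alas2. In MASH-Phe-free they held 18 members and 5 cells, with 293 and 406 and with 91.6 and 69.2.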

How the data were processed

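PolyA RNA of single mouse spleen cells was measured in 3 libraries, 1 each for Chow, MASH and MASH-Phe-free, with a 5′ single-cell kit and paired-end NovaSeq sequencing, per the labels' protocols. The authors deposited UMI counts, as whole numbers for each barcode and gene, from Cell Ranger 9.0.1, per the file headers. The other deposited columns are identifiers and symbols of 33696 genes and the barcodes. The submitters' processing notes name the build GRCm39/mm39 and, with no role, Seurat 5.3.0. No annotation release is named there, so positions and sequences were taken from GENCODE vM21 and RefSeq tables of GRCm38, matched by symbol, and used only to show sequences. Coding sequences were read as the longest open reading frame of each transcript.

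Counts were summed over the cells of a set and divided by their non-haemoglobin UMIs, because the rule used haemoglobin. Intervals at 95% are exact Poisson for levels, exact conditional Poisson for ratios and Clopper-Pearson for shares, and cover counting error only, since 1 library per group allows no test. Genes with at least 20 UMIs over the sets compared were counted as measured, and a 2-fold difference was the limit for counting. A level of 0 was replaced by a floor of 3 UMIs per set for folds, and a fold whose bound gave no direction was not counted. Cells were thinned with a fixed seed to 500 UMIs or 100 non-haemoglobin UMIs. T-marked cells had at least 300 genes, UMIs of at least 2 of Cd3d, Cd3e, Cd3g and Trac, and none of Cd79a. Python 3.11.15 with numpy 2.4.6, scipy 1.17.1, pandas 2.3.3 and matplotlib 3.10.9 was used, and the ratios were tested on simulated data. No doublet caller was run.

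Members and gene lists were chosen with earlier results of these data known. Genes were named by rule: the 12 highest in members; the 8 with the highest and the 8 with the lowest ratio to compared cells; for each pair of libraries the 5 farthest apart each way; and up to 4 of each list, with the markers. The 6 leading genes, and Kit and Gata2, were named after their values were seen. Not all genes so named are printed, and some are not reported here. Alternatives were other limits on genes, haemoglobin and UMIs, equal weight per cell, other totals, stricter compared cells and other count minimums. Leaving out the 6 leading genes, the highest member or members over 10% mitochondrial UMIs was chosen after seeing the data.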

Additional observations from a re-analysis of the deposited data

Results flagged for a closer look

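Some values pointed opposite ways in different libraries, each with an interval that excluded 1. With 1 library per group the difference was not tested. All are ratios of members to compared cells, in UMIs per 10000 non-haemoglobin UMIs.

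The early erythroid and cell cycle list was higher in members of Chow, at 2.03, and lower in MASH, at 0.0405, and MASH-Phe-free, at 0.135. The neutrophil list stood at 5.56 in Chow, over 21 UMIs in members, 0.162 in MASH and 0.118 in MASH-Phe-free. Among red cell genes, Prdx2 stood at 5.18 in Chow and 0.808 in MASH, and Car2 at 2.94 in Chow, 0.494 in MASH and 0.773 in MASH-Phe-free. The mitochondrial gene mt-Co3 stood at 1.67 in MASH-Phe-free and 0.936 in MASH.

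Among genes of neutrophil granules, Ngp stood at 3.86 in MASH and 0.288 in MASH-Phe-free, and Camp at 6.18 and 0.409. In compared cells of MASH-Phe-free, 1 cell gave 97.4% of the Ngp UMIs and 97.1% of the Camp UMIs. Jchain, the joining chain of secreted antibodies, stood at 4.22 in MASH-Phe-free, 0.0207 in Chow and 0.129 in MASH, and 1 compared cell gave 100% of its UMIs in Chow and 98.6% in MASH.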

How the results depend on the processing

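No paired analysis was possible because each group has 1 library. Of 4176 alternative values of 436 single ratios and levels, 2945 stayed inside the counting interval of the value reported, 1144 moved outside it, and 87 changed direction from a reported ratio of at least 2-fold with an interval that excluded 1. Another 256 values, of 111 ratios that did not meet both conditions, also changed sign. Among these, against compared cells with at least 50% haemoglobin in MASH, were the 5 erythroid lists, from 0.88 to -0.17 on the log2 scale, and the interferon list, from 0.69 to -0.76. The cause was not tested. With a limit of 200 genes MASH had 557 members. On the log2 scale, the share ratios over cells under 300 genes were 2.19 for MASH over Chow, -1.55 for MASH-Phe-free over MASH and 0.63 for MASH-Phe-free over Chow, against 4.33, -2.39 and 1.94 over all barcodes. MASH-Phe-free over MASH was -2.11 with 200 genes and -2.65 with over 70% haemoglobin. Hbb-bs as a share of haemoglobin UMIs in Chow, MASH and MASH-Phe-free was 72.1%, 74.6% and 73.7% with 200 genes, 73.4%, 75.2% and 73.9% with over 30% haemoglobin and 74.5%, 76.03% and 75.1% with over 70%. In MASH it was 75.9% with 400 genes and 75.5% with at least 1000 UMIs. The erythroid lists per 10000 in the same order were 1440, 1558 and 1552 with 200 genes, 1381, 1797 and 1542 with over 30% haemoglobin, 1894, 2131 and 2074 with over 70%, 1811, 1940 and 1769 with at least 1000 UMIs, and 2964, 3338 and 2956 without the 6 leading genes in the total. Those of MASH were 2025 with 400 genes, 1854 with equal weight per cell, where Chow had 1490, and 1960 without mitochondrial genes, where MASH-Phe-free had 1762. Genes past 2-fold against compared cells numbered 373, 7607 and 2637. They were 56, 1916 and 229 against those with at least 50% haemoglobin, and 48 (19 higher, 29 lower), 4793 and 635 without mixed cells. With at least 50 UMIs per gene they were 176 in Chow and 1181 in MASH-Phe-free, and with 1 UMI 697 in Chow. Between libraries 225, 239 and 57 genes were past 2-fold. They were 95 and 115 with 200 genes, where MASH-Phe-free over Chow had 25 higher and 18 lower, and 141 for MASH over Chow with over 70% haemoglobin. With at least 50 UMIs per gene they were 123 (77 higher, 46 lower), 74 (22 and 52) and 16, and with 1 UMI 910 (77 and 833), 855 (696 and 159) and 203 (88 and 115). The balance of these counts thus depends on the count minimum. Thinned to 50 non-haemoglobin UMIs, members showed 27, 28 and 28 genes.

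The ratios of at least 2-fold, with an interval that excluded 1, that changed direction are given on the log2 scale. Genes of the 4 lists that define mixed cells have no value under that setting, and the stricter compared sets of Chow held 3 or 4 cells. Against compared cells without the mixed ones, the ratio in Chow was Gpx1 -1.07, Pabpc1 -0.32, Mkrn1 -0.14, Ubb -1.17, Bnip3l -0.23, Slc25a39 -0.64, Slc4a1 -1.70, Isg20 -1.44, Prdx2 -0.70, Apol11b -2.39, Car2 -0.93, Bcl2l1 -0.048, the 5 erythroid lists -0.48, the membrane list -1.21, the enzyme list -0.88, the clearance list -0.46, the late regulator list -0.17, the early erythroid list -1.14 and the interferon list -0.35. In MASH it was Cd74 0.22, Jchain 3.04, plasma cell markers 1.90 and stroma and endothelium markers 1.06. In MASH-Phe-free it was Tmsb4x 2.16, Cd74 0.087 and MHC class II markers 0.15. Against compared cells with at least 50% haemoglobin, the ratio in Chow was Gpx1 -1.38, Pabpc1 -0.84, Ucp2 -0.19, Mkrn1 -0.45, Tent5c -0.14, Ubb -1.66, Bpgm -0.31, Bnip3l -0.57, Slc25a39 -1.06, Fech -0.23, Slc4a1 -1.03, Isg20 -1.99, Prdx2 -0.49, Apol11b -2.30, Car2 -0.87, Malat1 1.98, the 5 erythroid lists -0.56, the haem list -0.014, the membrane list -0.46, the enzyme list -1.16, the clearance list -0.64, the late regulator list -0.094, nucleus-retained RNA 1.98 and the interferon list -0.90. In MASH it was Gpx1 -0.29, Fech -0.043, Isg20 -0.16, Jchain 2.16, the clearance list -0.11 and plasma cell markers 0.69. In MASH-Phe-free it was Gpx1 -0.22, Ubb -0.20, Isg15 -0.30, Apol11b -0.64, E2f2 -0.40, S100a9 2.32, Ngp 3.73, S100a8 1.30, Jchain -0.13, Camp 3.30, the 5 erythroid lists -0.066, the enzyme list -0.36, the interferon list -0.27 and neutrophil markers 2.25. With equal weight per cell, the ratio in Chow was Slc4a1 -0.19, Apol11b -0.13, Car2 -0.55 and the early erythroid list -0.64. In MASH it was Jchain 0.28 and plasma cell markers 0.030. In MASH-Phe-free it was Camp 0.52. With a limit of 200 genes, the ratio in Chow was the early erythroid list -0.55 and the interferon list -0.0014. For MASH-Phe-free over Chow it was the early erythroid list 0.31. With over 70% haemoglobin, the ratio in Chow was the early erythroid list -0.34. For MASH-Phe-free over Chow it was the early erythroid list 0.20. With at least 1000 UMIs, the ratio in Chow was the early erythroid list -0.075. For MASH-Phe-free over Chow it was the early erythroid list 0.27. Without members over 10% mitochondrial UMIs, the ratio for MASH-Phe-free over Chow was mt-Cytb -0.11. Without the highest member, the ratio for MASH over Chow was Mki67 0.073. For MASH-Phe-free over Chow it was the early erythroid list 0.63. Depth limits Chow most, with 16254 non-haemoglobin UMIs in 37 members. No spread between animals was measured.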
